A study of Homo sapiens with 18 samples.

Results

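Condensin and SMC5/6 are the protein machines that, beside cohesin, are built on SMC ATPases, and the genes of their subunits were followed here through changes in the level of RAD21. The members were chosen by gene symbol. They are SMC2 and SMC4, shared by both condensins, NCAPD2, NCAPG and NCAPH of condensin I, NCAPD3, NCAPG2 and NCAPH2 of condensin II, and SMC5 and SMC6. All 10 were found among the 58735 genes of each count table and all 10 passed the filter on low counts. RNA was sequenced from A549 and H358, established human lung adenocarcinoma cell lines. RAD21 was knocked down in both with a lentiviral short hairpin RNA (shRAD21) beside cells carrying a control vector (shNC), and overexpressed in A549 (RAD21OE) beside cells with an empty vector (EV). Each of the 6 groups holds 3 libraries, and all 18 are of cells that carry a vector. The labels name no clone, no hairpin sequence and no time after transduction, and are silent on whether replicate libraries stem from independent cultures. The spread behind each p-value is that of these libraries and may be technical.

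Both condensins share the SMC2–SMC4 pair, an ATP-driven hinge and arm structure that is closed into a ring by a kleisin, NCAPH in condensin I and NCAPH2 in condensin II. Each kleisin binds a pair of HEAT-repeat subunits, NCAPD2 and NCAPG or NCAPD3 and NCAPG2. Condensin II is nuclear throughout the cell cycle, whereas condensin I reaches chromosomes after the nuclear envelope breaks down, and together they fold mitotic chromosomes. The SMC5–SMC6 pair, with a set of NSMCE proteins, acts in homologous recombination, in replication under stress and against extrachromosomal DNA. RAD21 is the kleisin of cohesin, so it has the place in that ring that NCAPH and NCAPH2 have in condensin.

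The genes lie on 8 chromosomes in the coordinates of the deposited tables (hg38, equal to GENCODE release 29). SMC2 lies at chr9:104094260-104141417 on the plus strand and SMC4 at chr3:160399274-160434962 on the plus strand. NCAPD2 lies at chr12:6493356-6531955, NCAPG at chr4:17810902-17844862 and NCAPH at chr2:96335787-96373845, all on the plus strand. NCAPD3 at chr11:134150119-134225454 and NCAPG2 at chr7:158631311-158704829 are on the minus strand, and NCAPH2 at chr22:50508216-50523472 is on the plus strand. SMC5 lies at chr9:70258962-70354888 on the plus strand and SMC6 at chr2:17663812-17800242 on the minus strand. Counts of a gene cover all its exons merged, untranslated regions included. No exon base of the 10 genes is shared with another gene on the same strand. On the opposite strand, LCORL overlaps 33.1% of the exon bases of NCAPG and IFT80 and TRIM59 overlap 25.6% of those of SMC4. The overlap is 8.89% for NCAPD3, 7.49% for NCAPD2, 1.09% for SMC6 and 0 for the other members. The sources used here do not say whether the counting used strand, and without strand the reads of such overlaps cannot be told apart.

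Genes that peak in mitosis often carry a CHR element, TTTGAA, near their start, and genes that peak in S phase an E2F site. The sites are shown because 6 of the 9 members with a RefSeq promoter entry (GRCh38.p14, 250 bases before to 50 after the start) hold TTTGAA on either strand in at least 1 entry. Over entries this is 6 of 12, beside 15.2% of all 35116 promoters in the table. Each line gives 30 bases 5′ to 3′ on the strand of the gene with the match in capitals (TTCAAA is the same element on the other strand).
SMC2 (chr9:104094294-104094323, plus strand): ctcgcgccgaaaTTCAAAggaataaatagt
SMC4 (chr3:160399563-160399592, plus strand): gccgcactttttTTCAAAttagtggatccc
NCAPD2 (chr12:6493945-6493974, plus strand): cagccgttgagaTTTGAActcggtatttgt
NCAPG (chr4:17810932-17810961, plus strand): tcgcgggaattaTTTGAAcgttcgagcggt
NCAPD3 (chr11:134223953-134223982, minus strand): gcgggagcgagcTTTGAAagttgagcacgg
NCAPG2 (chr7:158704755-158704784, minus strand): gcgccggcgggtgcgTTTGAAtctggtccg
SMC6 (chr2:17753859-17753888, minus strand): agactccggcgGCGCGAAAccccgcaactg

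Relative to the RefSeq start, the first base of the match lies at -3 in SMC2 and NCAPD3, -35 in NCAPG, -75 in SMC4, -145 in NCAPD2 and 36 in NCAPG2. The line of SMC6 shows an E2F match (TTTCGCGC on the other strand) at -67. The E2F letters searched, TTTCCCGC, TTTCGCGC, TTTGCCGC and TTTGGCGC on both strands, were found in 2 of the 12 entries, those of SMC6 and NCAPD3, and in 3.31% of all promoters. CCAAT, searched on both strands, was found in 3 entries and in 34.6% of all promoters. It occurs 4 times before NCAPD2, 2 times before NCAPD3 and 1 time before NCAPH. NCAPH and SMC5 hold neither TTTGAA nor an E2F match in these windows. No match overlapped another. By GENCODE release 29 the stretches shown touch an exon of some transcript of their own gene, except that of SMC6. A match of letters is a description and not a bound site, and NCAPH2 has no entry in the table.

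Libraries of the knockdown held 15155077 to 19277568 counts and those of the overexpression 13024640 to 14276335. Levels are given in CPM, counts scaled to the same library total after weighting by TMM factors. RAD21 fell by 1.08 on the log2 scale in A549 knockdown, from 255 ± 2.0 to 121 ± 17 CPM (SD, n = 3), and by 0.51 in H358 knockdown, from 587 ± 17 to 413 ± 30 CPM. In overexpression it rose by 2.85, from 199 ± 8.0 to 1442 ± 118 CPM. Adjusted p by edgeR was 2.99e-08, 0.000671 and 2.90e-10. As to the labelled cell type, 5 epithelial markers summed to between 4681 and 12250 CPM over the groups and 9 markers of immune, endothelial and stromal cells to between 29.1 and 46.6 CPM, with COL1A1 the highest of the 9 (18.4 to 39.6 CPM). CD3E, PTPRC and DCN did not exceed 0.431 CPM in any library. In A549 shNC most of the epithelial sum was KRT8 (4680 CPM) and KRT18 (2574 CPM), with CDH1 at 66.7 CPM. KRT19 was at 8.79 CPM in A549 shNC, below COL1A1 at 27.7 CPM, and at 1499 CPM in H358 shNC. EPCAM was low in A549 (3.65 CPM in shNC) and high in H358 (539 CPM), and the lung factor NKX2-1 was near 0 in A549 (0.0643 CPM in shNC) and at 121 CPM in H358 shNC. The other lung markers looked at were low in both lines. In A549 shNC and H358 shNC, SFTPB was at 0.0649 and 0.112 CPM, SFTPC at 0.0669 and 0.0370 CPM and NAPSA at 1.31 and 1.63 CPM.

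A pair of libraries stood apart from their replicates. Calls of the members, the counts over gene lists and the correlations between genes are given with and without them; levels, ranges and ratios are given for all libraries. A549 shRAD21 replicate 3 differed from replicates 1 and 2 by a median of 0.315 and 0.306 in absolute log2 units, and A549 RAD21OE replicate 3 from its replicates by 0.271 and 0.233. No other pair of replicates exceeded 0.146. RAD21 itself was at 129, 132 and 101 CPM in A549 shRAD21 replicates 1, 2 and 3, and at 1520, 1501 and 1306 CPM in those of RAD21OE. Replicate 3 thus had the lowest RAD21 in both groups, and the part of this in the levels of the members was not tested. Both libraries also differed in how expression changed with GC content. Against the mean of the controls, the Spearman correlation over genes of the log2 difference with GC content was -0.431, -0.415 and 0.0991 in A549 shRAD21 replicates 1, 2 and 3. It was 0.0502, 0.195 and 0.543 in RAD21OE. The members span much of this axis, with 36.6% GC in the longest transcript of SMC5, 37.3% in SMC4, 37.6% in SMC2 and SMC6, 39.0% in NCAPG and 41.4% in NCAPG2. NCAPH is at 47.6%, NCAPD3 at 48.6%, NCAPD2 at 52.5% and NCAPH2 at 62.2%.

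**Figure D1:**
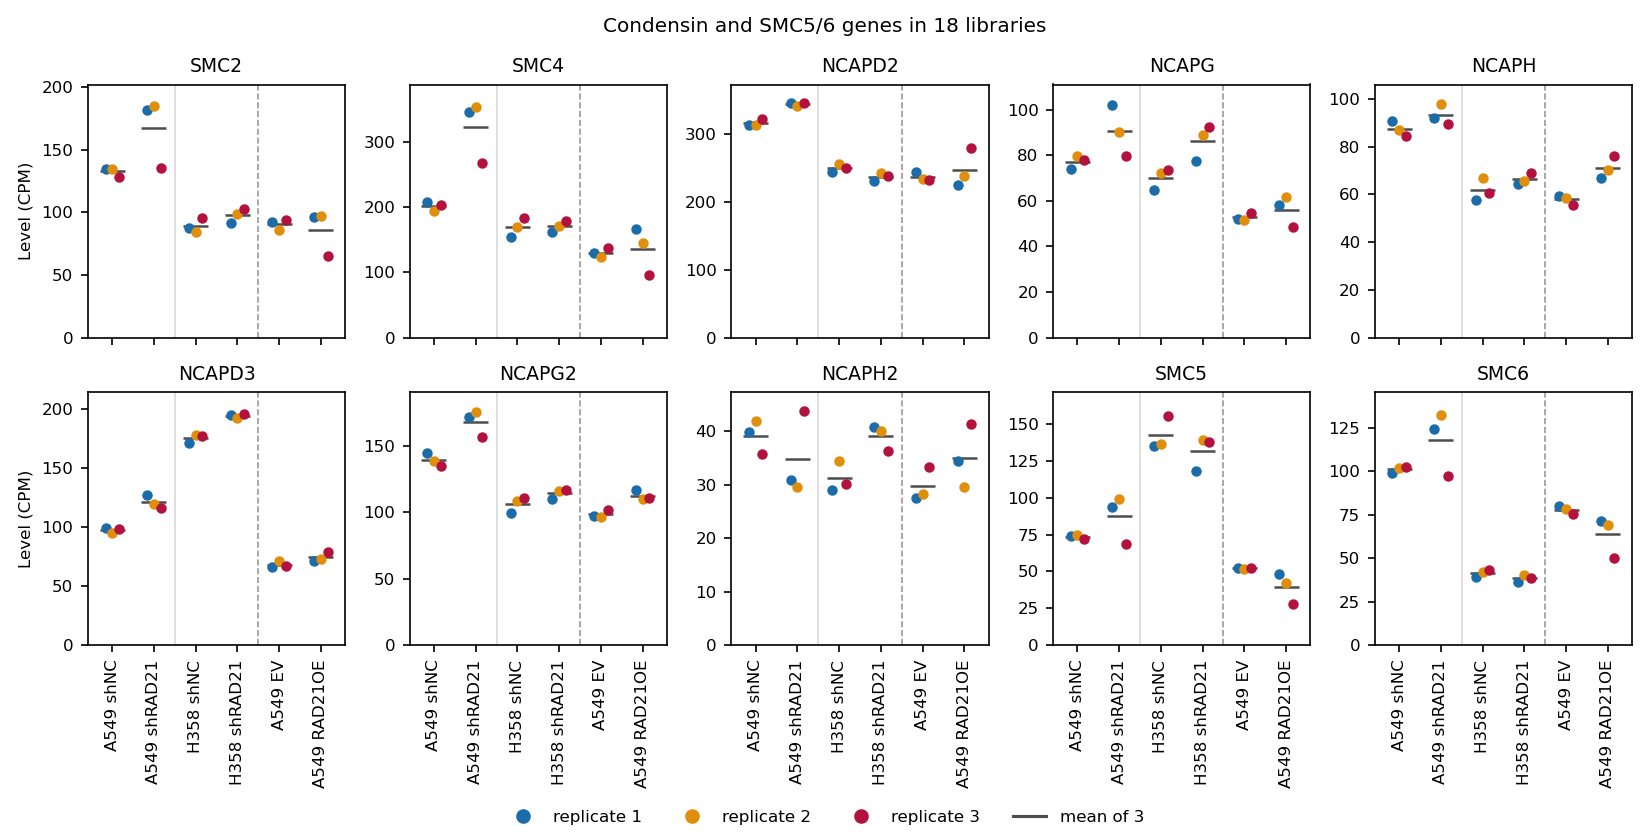
Level in CPM (vertical axis, from 0) of each of the 10 genes in all 18 libraries. Points are libraries, coloured by replicate number, and bars are means of 3. The dashed line parts the overexpression, a separate table. SMC4 in A549 shRAD21 sits at 268 to 352 CPM, above the 193 to 208 CPM of shNC, with replicate 3 the lowest.

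Per kilobase of merged exon, NCAPD2 was the most abundant member in all 6 groups. In A549 shNC it stood at 48.8 ± 0.79 CPM per kb (SD, n = 3), followed by NCAPH at 26.6 ± 0.95, SMC4 at 23.8 ± 0.86, SMC2 at 20.5 ± 0.61 and NCAPG2 at 19.9 ± 0.75. NCAPG was at 15.7 ± 0.57, NCAPH2 at 12.4 ± 0.98, SMC5 at 11.1 ± 0.17, NCAPD3 at 10.7 ± 0.23 and SMC6 at 10.3 ± 0.19. Of these neighbours only SMC2 and NCAPG2 had overlapping library ranges. The order in H358 shNC was another one. NCAPD2 led with 38.5 ± 0.93 CPM per kb, and SMC5 came next at 21.5 ± 1.7, its range overlapping that of SMC4 at 20.0 ± 1.7, which overlapped NCAPD3 at 19.2 ± 0.39, which overlapped NCAPH at 18.8 ± 1.4. NCAPG2 at 15.2 ± 0.82, NCAPG at 14.2 ± 0.97 and SMC2 at 13.8 ± 0.90 also overlapped in turn. NCAPH2 was at 9.87 ± 0.90, and SMC6 was last at 4.196 ± 0.21, below every other member.

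In A549 EV the order began as in A549 shNC, with NCAPD2 at 36.5 ± 0.87 CPM per kb, NCAPH at 17.6 ± 0.63 and SMC4 at 15.4 ± 0.78. It ended with NCAPD3 at 7.45 ± 0.31, whose range overlapped that of SMC5 at 7.85 ± 0.061. The tables of knockdown and overexpression carry different batch labels, so levels are not compared between shNC and EV.

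**Figure D2:**
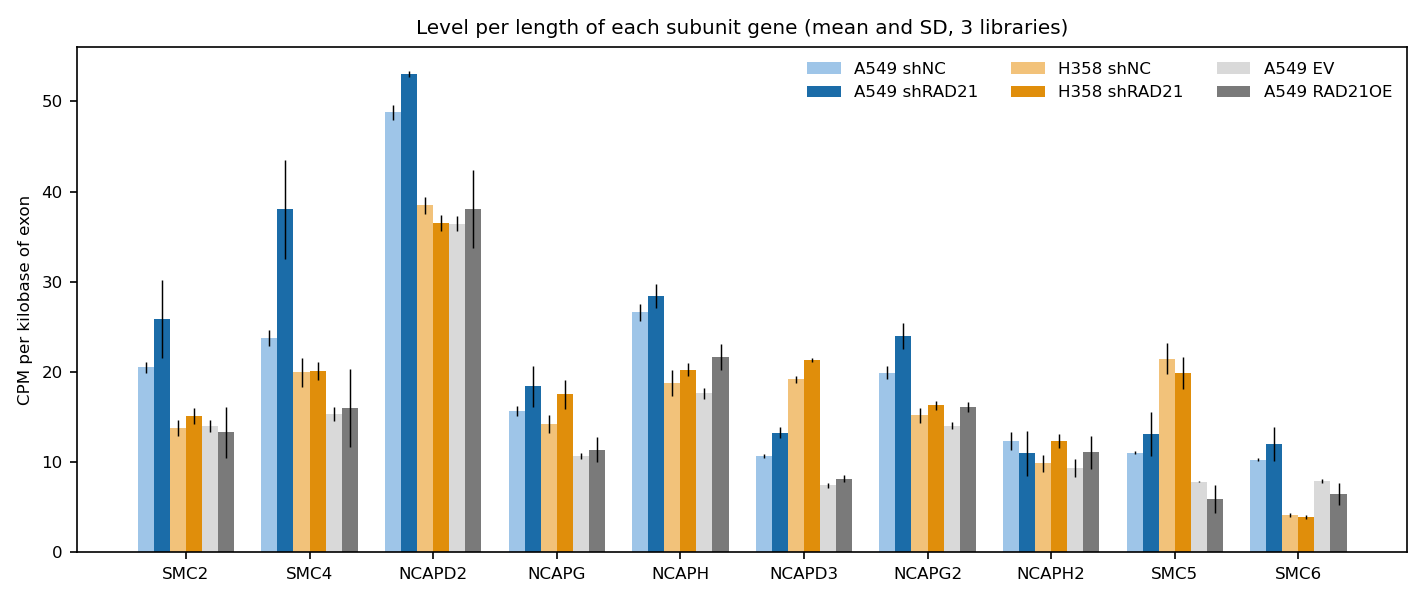
Level per kilobase of merged exon (vertical axis, CPM per kb) of each gene, with 1 bar per group and the SD of 3 libraries as error. NCAPD2 is the tallest in every group, at 36.5 to 53.0 CPM per kb. SMC5 and SMC6 are close to each other in A549 and apart in H358.

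The lines differed in most members before RAD21 was lowered. Between the control libraries, H358 shNC against A549 shNC, 9 of the 10 members passed the test, 2 higher and 7 lower in H358. Of all 18939 genes tested 76.0% were called in this comparison, 39.1% higher and 36.8% lower. Ranges did not overlap for 81.0% of all genes (41.9% above and 39.1% below) and for all 10 members, 2 above and 8 below. A large share of called genes is thus the background here. SMC6 was at 38.9, 41.9 and 42.9 CPM in H358 shNC and at 98.9, 102 and 103 CPM in A549 shNC, a log2 difference of -1.29 (SE 0.096, edgeR adjusted p = 5.82e-10). Its partner SMC5 was the other way round, at 136, 137 and 156 CPM in H358 and 73.7, 74.5 and 72.3 CPM in A549, a log2 difference of 0.96 (SE 0.11, edgeR adjusted p = 2.14e-07). All 3 libraries of one line lay beyond all 3 of the other for both genes. The SMC5:SMC6 ratio per kilobase was 5.12 ± 0.28 in H358 shNC and 1.08 ± 0.031 in A549 shNC (SD, n = 3).

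NCAPD3, which binds the condensin II kleisin, was the other member higher in H358, at 171, 178 and 177 CPM against 99.2, 95.1 and 98.1 CPM. Its log2 difference was 0.84 (SE 0.060, edgeR adjusted p = 3.25e-10). The remaining condensin genes were lower in H358, by a log2 difference of -0.57 for SMC2, -0.50 for NCAPH, -0.39 for NCAPG2, -0.34 for NCAPD2, -0.33 for NCAPH2 and -0.25 for SMC4. NCAPG did not pass the test (-0.14, edgeR adjusted p = 0.185), although its 3 libraries in H358 lay below those in A549. It passed when the libraries of these 2 groups were fitted alone (-0.14, edgeR adjusted p = 0.0275). When each library's trend on GC content and exon length was removed, all 10 members were called, beside 80.3% of all genes. NCAPG was then at -0.45 (edgeR adjusted p = 3.14e-07), SMC2 at -0.88, NCAPH at -0.70, NCAPG2 at -0.63, SMC4 at -0.54, NCAPD2 at -0.26 and NCAPH2 at -0.19. NCAPD3 was at 0.80, SMC5 at 0.63 and SMC6 at -1.56, so the directions stayed as reported and the sizes moved. The calls of SMC4 and NCAPH2 were lost when some single control libraries were left out. For SMC4 these were H358 shNC replicate 1 (log2 -0.21, adjusted p = 0.0629 by edgeR) and A549 shNC replicate 1 (-0.24, adjusted p = 0.0523). For NCAPH2 they were H358 shNC replicates 1 and 3 and A549 shNC replicates 1 and 2, with edgeR adjusted p of 0.0842, 0.0680, 0.0586 and 0.0902. Condensin I genes summed per kilobase were 1.62 ± 0.0068 times condensin II genes in H358 shNC and 2.12 ± 0.079 times in A549 shNC.

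The genes that work with SMC5 and SMC6 were followed in the same control libraries. Of the 8, which were NSMCE1, NSMCE2, NSMCE3, NSMCE4A and EID3 of the complex and SLF1, SLF2 and RAD18 of its recruitment to damaged DNA, 6 were lower and 0 higher in H358 shNC by edgeR, as they were at an unadjusted p under 0.05. With 76.0% of all genes called, such a share is near the background for calls in either direction. The calls of the partners were all on the lower side, where 36.8% of all genes were called, and that shared direction was not tested. NSMCE3, a MAGE protein next to the kleisin, was at 5.57 CPM in H358 and 35.9 CPM in A549 (log2 -2.69, SE 0.15). NSMCE4A, the kleisin of SMC5/6, was at 23.3 and 58.6 CPM (log2 -1.33, SE 0.093). EID3, a second kleisin best known from testis, was at 0.207 and 9.77 CPM. SLF2 had a log2 difference of -0.98, RAD18 of -0.52 and SLF1 of -0.50. NSMCE1 and NSMCE2, the RING and SUMO ligases, did not pass the test, with log2 differences of -0.15 and 0.19.

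In A549 with RAD21 knocked down, mRNAs of some condensin subunits were higher than in controls. Of the 10 members, 4 rose (SMC2, SMC4, NCAPD3 and NCAPG2) and 0 fell, where 25.2% of all 18939 genes tested were called, 14.4% higher and 10.9% lower. The called members are both shared SMC genes and both HEAT-repeat genes of condensin II. By edgeR as reported, 0 of the 3 genes of condensin I passed, and neither did SMC5 or SMC6. DESeq2 called 5 members higher and 0 lower, beside 26.3% of all genes, the fifth being NCAPD2 of condensin I (log2 0.12, DESeq2 adjusted p = 0.0425). Limma-voom called 4 higher and 0 lower, beside 26.4% of all genes. At an unadjusted p under 0.05 edgeR had 8 members higher and 0 lower. The share of all genes at that unadjusted threshold was not counted for any comparison, so such counts have no background beside them. The median log2 change over the 8 condensin genes was 0.25, where that of all genes was 0.0045. In 6 members all shRAD21 libraries lay above all shNC libraries and in 4 the ranges overlapped, while ranges did not overlap for 32.7% of all genes (18.3% above and 14.4% below).

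SMC4, the ATPase that pairs with SMC2, showed the largest change of the 10 in A549. It stood at 345, 352 and 268 CPM in shRAD21 and at 208, 193 and 203 CPM in shNC. All 3 knockdown libraries were above all 3 controls, with replicate 3 between the controls and the other two. The change was 1.60-fold (95% interval 1.402 to 1.82), or 0.68 on the log2 scale (SE 0.090, edgeR adjusted p = 1.78e-05). SMC2 stood at 182, 185 and 135 CPM in shRAD21 and at 135, 135 and 128 CPM in shNC. Replicate 3 lay at the top edge of the controls and the other 2 libraries well above them. The change in SMC2 was 1.26-fold (95% interval 1.10 to 1.45), or 0.34 on the log2 scale (SE 0.096, edgeR adjusted p = 0.0152). Because the shared subunits moved by different amounts, the SMC4:SMC2 ratio per kilobase was 1.45, 1.46 and 1.51 in shRAD21 and 1.18, 1.09 and 1.21 in shNC, without overlap.

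Of the condensin II genes, NCAPD3 was at 127, 119 and 116 CPM in shRAD21 and at 99.2, 95.1 and 98.1 CPM in shNC. The 3 knockdown libraries were close to each other and above the controls, a rise of 0.31 on the log2 scale (SE 0.061, edgeR adjusted p = 0.000915). NCAPG2 was at 171, 176 and 156 CPM against 145, 138 and 134 CPM, again with no overlap, a rise of 0.27 (SE 0.068, edgeR adjusted p = 0.00661). The kleisin NCAPH2 went its own way, at 30.8, 29.6 and 43.8 CPM in shRAD21 and 39.8, 41.8 and 35.7 CPM in shNC. Replicates 1 and 2 were below all controls and replicate 3 above all of them, and the log2 change of -0.17 (SE 0.13) did not pass (edgeR adjusted p = 0.340).

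Of the condensin I genes in A549, NCAPG was at 102, 89.98 and 79.7 CPM in shRAD21 and 74.0, 79.4 and 77.8 CPM in shNC, with no overlap but a log2 change of 0.23 that missed the threshold (edgeR adjusted p = 0.0697). NCAPD2 was at 345, 342 and 345 CPM against 313, 313 and 322 CPM, also without overlap, with a log2 change of 0.12 (edgeR adjusted p = 0.109). NCAPH, the kleisin, was at 92.1, 97.9 and 89.3 CPM against 90.6, 86.8 and 84.5 CPM, ranges that overlap (log2 0.09, edgeR adjusted p = 0.386). The summed ratio of condensin I to condensin II was 2.07 ± 0.082 in shRAD21 and 2.12 ± 0.079 in shNC, a difference within the spread.

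SMC5 and SMC6 moved alike from library to library in A549. SMC5 was at 93.9, 99.2 and 68.8 CPM in shRAD21 and 73.7, 74.5 and 72.3 CPM in shNC. SMC6 was at 124, 132 and 97.0 CPM in shRAD21 and 98.9, 102 and 103 CPM in shNC. For both genes replicates 1 and 2 were above all controls and replicate 3 below all of them. The log2 changes were 0.25 and 0.22 (edgeR adjusted p = 0.104 and 0.0880), and the ratio of the pair was 1.09 ± 0.037 in shRAD21 and 1.08 ± 0.031 in shNC.

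These counts turned on replicate 3 of A549 shRAD21, the library of that group with the lowest RAD21. Without it 9 of the 10 members were called, with 43.0% of all genes called: 8 members were higher, and NCAPH2 was lower with a log2 change of -0.37 (edgeR adjusted p = 0.000454). SMC4 was then at 0.79, SMC2 at 0.47, SMC5 at 0.39, SMC6 at 0.35, NCAPD3 at 0.34, NCAPG and NCAPG2 at 0.32 and NCAPD2 at 0.12, and NCAPH at 0.12 was the member not called (edgeR adjusted p = 0.104). The call of SMC2 was lost without A549 shRAD21 replicate 1 (log2 0.27, edgeR adjusted p = 0.0767), without replicate 2 (0.26, 0.0856) or without A549 shNC replicate 3 (0.31, 0.0652).

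The log2 changes in A549 knockdown also went with GC content, with a Spearman correlation of -0.326 over genes, and 3 of the 4 called members (SMC4, SMC2 and NCAPG2) have 37.3% to 41.4% GC. When each library's trend on GC content and exon length was removed, 4 members were again called, beside 29.3% of all genes, but they were SMC4 (0.47, edgeR adjusted p = 5.30e-09), NCAPD3 (0.23, 0.000285), SMC2 (0.14, 0.0400) and NCAPD2 (0.13, 0.0233). NCAPG2 lost its call (0.09, edgeR adjusted p = 0.160). SMC5 was then at 0.04, SMC6 at 0.02, NCAPG at 0.06, NCAPH at 0.03 and NCAPH2 at 0.04. With replicate 3 left out as well, SMC4 was at 0.48, NCAPD3 at 0.24, SMC2 at 0.17 and NCAPD2 at 0.16, and these 4 were called, beside 33.1% of all genes. SMC2, SMC4 and NCAPD3 were called as reported, without replicate 3, with the correction and with both steps. SMC2 and NCAPG2 were not called when the libraries of the 2 groups were fitted alone (0.30 and 0.24, edgeR adjusted p = 0.0862 and 0.0575).

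**Figure D3:**
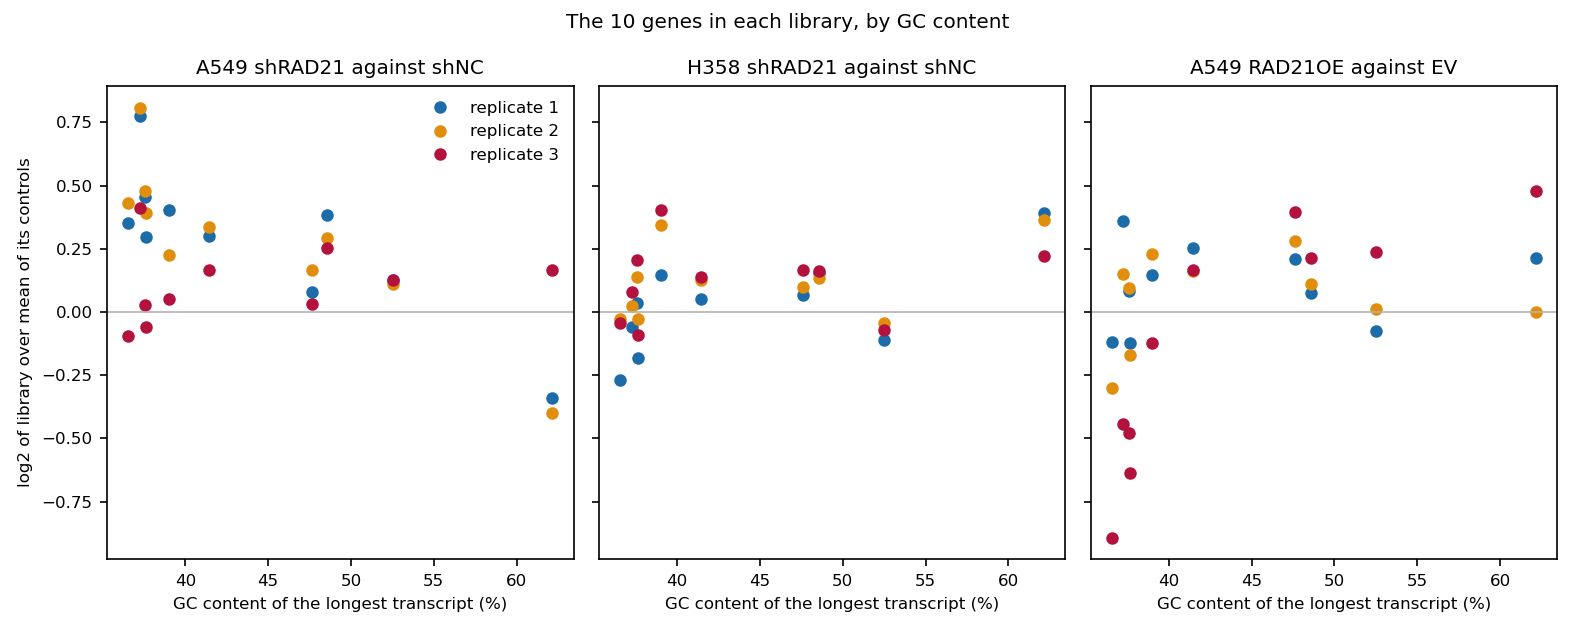
Log2 of each library's level over the mean of its controls (vertical axis) for the 10 genes, placed by GC content of the longest transcript (horizontal axis, percent). Points are libraries, coloured by replicate number. In A549 shRAD21, replicates 1 and 2 run downward from SMC4 and SMC5 on the left to NCAPH2 on the right, and replicate 3 does not. In RAD21OE, replicate 3 runs upward.

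Cell cycle genes were followed in the same libraries. Of 52 genes of a published G2/M score, from which SMC4 and NCAPD2 were removed, 28 rose and 0 fell by edgeR (33 and 0 at an unadjusted p under 0.05), with a median log2 change of 0.24. Among them TOP2A, the topoisomerase that works with condensin on mitotic chromosomes, had a log2 change of 0.53 and HMGB2 one of 0.40. Of 42 tested S-phase genes 13 rose and 2 fell, with a median of 0.13. RRM2 and MCM6 rose by 0.51 and 0.42 and UNG and MCM5 fell by 0.32 and 0.31. Of 12 chromosome partners of condensin, 4 rose, TOP2A and CCNB1 (0.29) first among them, and INCENP fell by 0.28. Without A549 shRAD21 replicate 3, 35 G2/M genes rose and 3 fell, 21 S-phase genes rose and 4 fell, and 5 chromosome partners rose and 2 fell. After the correction for GC content and length these counts were 26 and 3, 10 and 5, and 7 and 0, with medians of 0.15, 0.04 and 0.14. INCENP was then at -0.12 and not called (edgeR adjusted p = 0.0949). Epithelial markers moved too, with 5 of 5 higher in A549 shRAD21 and a summed mean level of 12250 CPM there and 7333 CPM in shNC. In bulk RNA, more cells of a kind or phase and more RNA per cell cannot be told apart, and the part of these shifts in the change of the members was not tested.

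Of the partners of SMC5 and SMC6, only EID3 was called by edgeR as reported in A549 knockdown, at 6.09 CPM in shRAD21 and 9.77 CPM in shNC (log2 -0.68, SE 0.19, edgeR adjusted p = 0.0127). The other 7 had log2 changes of -0.09 to 0.19. Of the cohesin ring, SMC1A and SMC3, the relatives of SMC4 and SMC2, did not pass (log2 0.06 and 0.13, edgeR adjusted p = 0.489 and 0.309), and neither did STAG2 (0.25, 0.0634). STAG1 rose by 0.55 (edgeR adjusted p = 0.000765). Without A549 shRAD21 replicate 3, NSMCE2 (0.28), NSMCE4A (0.20) and SLF1 (0.29) were called higher, and so were SMC3 (0.24, edgeR adjusted p = 0.00039) and STAG2 (0.39, edgeR adjusted p = 2.97e-09). After the correction these 5 were not called, and EID3 (-0.76) and STAG1 (0.36) were.

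Some genes start within 1000 bases of a member on the opposite strand. IFT80, which encodes a protein of ciliary transport, starts 606 bases from SMC4 and rose in A549 knockdown, from 19.1 to 25.1 CPM (log2 0.40, edgeR adjusted p = 0.0341). MRPL51, a mitochondrial ribosomal protein gene 485 bases from NCAPD2, fell from 70.7 to 52.0 CPM (log2 -0.45, edgeR adjusted p = 0.0387). DCAF16 beside NCAPG, VPS26B beside NCAPD3 and LMF2 beside NCAPH2 did not pass, with log2 changes of 0.26, -0.05 and -0.03. For IFT80 and MRPL51 the ranges of the groups overlapped. IFT80 was not called after the correction (0.19, edgeR adjusted p = 0.133). MRPL51 was at -0.77 and DCAF16 was called at 0.39 without A549 shRAD21 replicate 3, and LMF2 was called higher after the correction (0.23, edgeR adjusted p = 0.002).

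In H358, 1 member passed the test. NCAPG, a HEAT-repeat subunit of condensin I, was at 77.5, 88.9 and 92.5 CPM in shRAD21 and 64.7, 72.2 and 73.4 CPM in shNC. All 3 knockdown libraries lay above the controls, a rise of 0.30 on the log2 scale (SE 0.091, edgeR adjusted p = 0.0491). At an unadjusted p under 0.05 edgeR had 3 members higher and 0 lower, a count with no share of all genes beside it. DESeq2 and limma-voom called NCAPG alone, beside 10.6% and 9.63% of all genes. With 1 of 10 members called by edgeR beside 8.40% of all genes (3.78% higher and 4.62% lower), the share is near the background. The call was lost without any one of 5 of the 6 H358 libraries, which are shRAD21 replicates 2 and 3 and all 3 shNC libraries. Its log2 change then ranged from 0.25 to 0.33, with edgeR adjusted p from 0.0851 to 0.198.

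SMC4 was the member whose H358 value differed most from its A549 value. It was at 162, 171 and 178 CPM in H358 shRAD21 and at 154, 170 and 182 CPM in shNC, wholly overlapping ranges, with a log2 change of 0.01 and a 95% interval of -0.18 to 0.20. SMC2 was at 91.4, 98.3 and 103 CPM against 87.9, 84.4 and 95.8 CPM, also overlapping (log2 0.13, edgeR adjusted p = 0.483). NCAPD3 was at 195, 192 and 196 CPM against 171, 178 and 177 CPM. Its libraries were apart from the controls by more than their spread, but the log2 change of 0.15 did not pass over all genes (edgeR adjusted p = 0.133). NCAPH2 was at 40.8, 40.0 and 36.2 CPM against 28.98, 34.4 and 30.2 CPM, above all controls, with a log2 change of 0.32 (edgeR adjusted p = 0.123).

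NCAPD2 was the member whose knockdown libraries all lay below the controls in H358, at 231, 242 and 237 CPM against 243, 255 and 250 CPM (log2 -0.08, edgeR adjusted p = 0.442). The ranges of SMC2, SMC4, NCAPH, NCAPG2, SMC5 and SMC6 overlapped. NCAPH and NCAPG2 had log2 changes of 0.11 and 0.10, SMC5 of -0.11 and SMC6 of -0.10. In all, 3 members were above and 1 below without overlap, where 36.1% of all genes had ranges that did not overlap. The SMC5:SMC6 ratio was 5.08 ± 0.24 in shRAD21 and 5.12 ± 0.28 in shNC. The ratio of condensin I to condensin II per kilobase was between 1.42 and 1.54 in shRAD21 and between 1.61 and 1.62 in shNC, with every knockdown library below every control.

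In H358 the log2 changes went weakly the other way with GC content, with a Spearman correlation of 0.183 over genes. After removal of the trends on GC content and length, 5 members were called, all higher. These were NCAPG (0.35), NCAPH2 (0.22), SMC2 (0.20), NCAPD3 (0.16) and NCAPG2 (0.16), with edgeR adjusted p of 0.000158, 0.0468, 0.00731, 0.00821 and 0.0283. SMC4 was then at 0.10 (edgeR adjusted p = 0.126). That correction raised the number of all genes called from 1591 to 3228, or 17.0%.

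Of the G2/M score 2 genes rose and 1 fell in H358 knockdown, with a median log2 change of 0.06. BIRC5 and GTSE1 had log2 changes of 0.35 and 0.29, and LBR one of -0.39. Of the S-phase genes 16 rose and 0 fell by edgeR (26 and 0 at an unadjusted p under 0.05), with a median of 0.22, led by MCM6 (0.50) and UNG (0.44). Of the 12 chromosome partners 2 rose, BIRC5 and CCNB1 (0.21). After the correction 11 G2/M genes rose and 2 fell, 28 S-phase genes rose and 0 fell, and 4 chromosome partners rose and 0 fell. None of the 8 partners of SMC5 and SMC6 passed (0 at an unadjusted p under 0.05), and their log2 changes with edgeR ran from -0.26 for NSMCE3 to 0.68 for EID3, the latter at 0.323 and 0.207 CPM. LMF2, whose start lies 525 bases from that of NCAPH2, rose from 50.9 to 68.7 CPM (log2 0.43, edgeR adjusted p = 0.00569). In the cohesin ring STAG1 rose by 0.40, while SMC1A and SMC3 had log2 changes of 0.09 and -0.07 that did not pass.

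**Figure D4:**
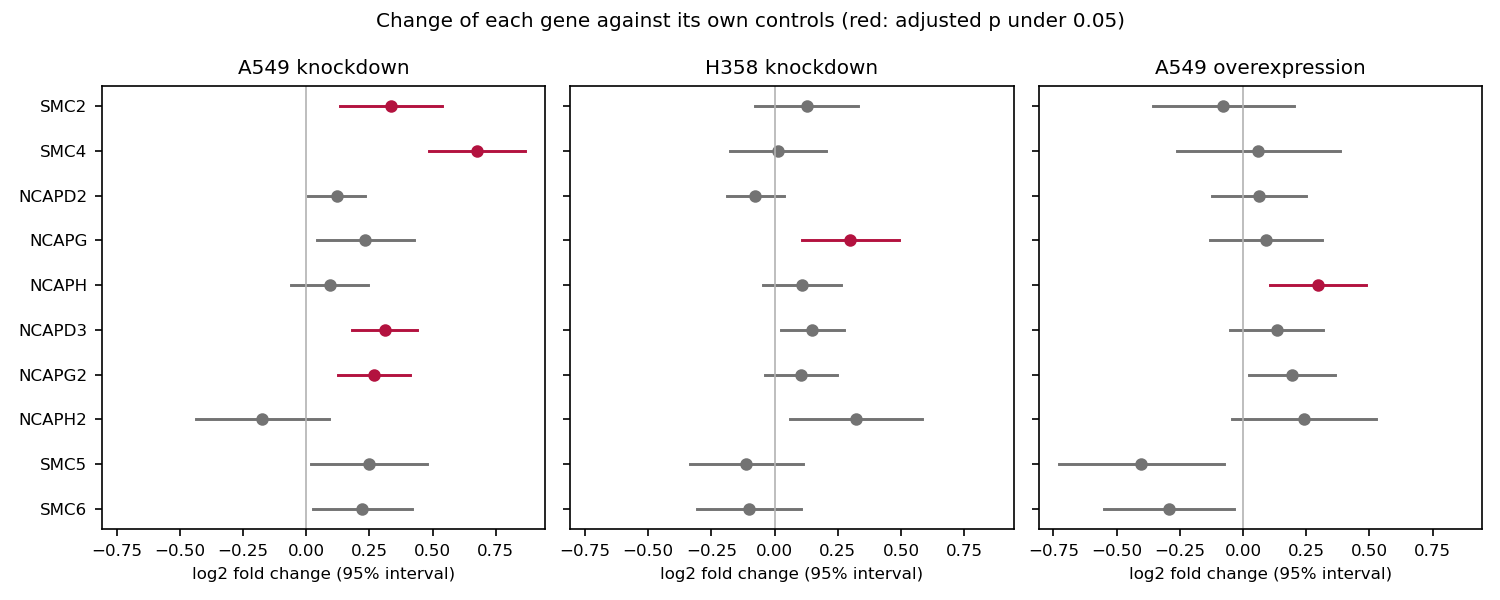
Log2 fold change (horizontal axis) of each gene against its own controls in the 3 comparisons, with 95% intervals of the fit. Red marks an adjusted p under 0.05. SMC2, SMC4, NCAPD3 and NCAPG2 are red in A549 knockdown, NCAPG in H358 knockdown and NCAPH in A549 overexpression.

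Whether the knockdowns differed between the lines was tested as a contrast, the log2 change in H358 minus that in A549. It was called for 1 of 10 members, beside 17.6% of all genes (7.61% higher and 9.94% lower). SMC4 differed by -0.66 (SE 0.13, edgeR adjusted p = 0.00144). Its difference was -0.37 after removal of the trends on GC content and length (edgeR adjusted p = 9.03e-05) and -0.78 without A549 shRAD21 replicate 3 (edgeR adjusted p = 2.21e-12). NCAPH2 differed by 0.50 (edgeR adjusted p = 0.0606), NCAPD2 by -0.20 (0.0824), SMC6 by -0.32 (0.109) and SMC5 by -0.36 (0.111). NCAPG and NCAPH, with differences of 0.07 and 0.01, had 95% intervals of -0.21 to 0.34 and -0.20 to 0.23. Without A549 shRAD21 replicate 3 the contrast was called for 8 members, all but NCAPG and NCAPH, beside 37.5% of all genes. With the correction it was called for 3, beside 21.0% of all genes: SMC4, NCAPD2 (-0.23) and NCAPG (0.30). RAD21 itself fell less in H358, with a difference of 0.57 (edgeR adjusted p = 0.00228), so the depth of the knockdown and the line cannot be told apart.

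Overexpression of RAD21 in A549 raised 1 member by the test. NCAPH, the condensin I kleisin, was at 66.8, 70.2 and 76.0 CPM in RAD21OE and at 59.4, 58.5 and 55.5 CPM in EV. No library overlapped, and the rise was 0.30 on the log2 scale (SE 0.089, edgeR adjusted p = 0.0247). Of all 15462 genes tested 27.8% were called (14.1% higher and 13.7% lower), and 1 of 10 members is not above that background. The call was lost without RAD21OE replicate 2 (log2 0.31, edgeR adjusted p = 0.0659) or without EV replicate 1, 2 or 3 (0.32, 0.31 and 0.27, with edgeR adjusted p of 0.0778, 0.0809 and 0.115). It stood without RAD21OE replicate 3 (0.25, 0.00733) and after the correction for GC content and length (0.34, 0.000600).

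SMC5 and SMC6 had the largest negative values. SMC5 was at 48.0, 42.3 and 28.0 CPM in RAD21OE and at 52.4, 51.6 and 52.3 CPM in EV, and SMC6 at 71.6, 69.2 and 50.1 CPM against 79.8, 78.5 and 75.4 CPM. All 3 libraries of RAD21OE were below all 3 of EV for both genes, with replicate 3 the lowest by a wide gap. The log2 changes of -0.40 (SE 0.15) and -0.29 (SE 0.12) missed the threshold (edgeR adjusted p = 0.0631 and 0.0833). SMC5 passed without RAD21OE replicate 3 (log2 -0.20, edgeR adjusted p = 0.0464) and without replicate 1 (-0.56, 0.00564), and SMC6 without replicate 1 (-0.38, 0.0224). Both passed with no filter on low counts (-0.39 and -0.28, edgeR adjusted p = 0.00524 and 0.0387). DESeq2 and limma-voom called SMC5 lower (log2 -0.40 and -0.44, adjusted p = 0.0466 and 0.0493). After the correction for GC content and length the pair stood at -0.11 and -0.03 and neither passed (edgeR adjusted p = 0.225 and 0.741).

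The shared condensin genes were spread widely across RAD21OE. SMC4 was at 167, 144 and 95.5 CPM against 130, 123 and 136 CPM in EV, with replicates 1 and 2 above all controls and replicate 3 below all of them. SMC2 was at 96.1, 97.0 and 65.1 CPM against 92.0, 86.2 and 94.2 CPM, in the same pattern. NCAPG was at 58.3, 61.8 and 48.3 CPM against 52.1, 51.4 and 54.5 CPM, again with replicate 3 alone below the controls. The log2 changes of 0.06, -0.08 and 0.09 did not pass (edgeR adjusted p = 0.797, 0.688 and 0.542).

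NCAPD2, at the richer end of GC content, ran the other way, at 224, 238 and 279 CPM against 243, 234 and 233 CPM, with replicate 3 the highest. NCAPD3 was at 71.4, 73.2 and 78.7 CPM against 65.9, 71.0 and 66.6 CPM and NCAPG2 at 117, 110 and 110 CPM against 97.0, 96.4 and 101 CPM. Both lay above all controls, but their log2 changes of 0.13 and 0.19 did not pass (edgeR adjusted p = 0.265 and 0.0803). NCAPH2 was at 34.3, 29.6 and 41.3 CPM against 27.5, 28.2 and 33.3 CPM, an overlap (log2 0.24, edgeR adjusted p = 0.192). In all, 3 members lay above and 2 below without overlap, where 45.4% of all genes had ranges that did not overlap (22.9% above and 22.6% below).

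Without RAD21OE replicate 3, 5 members were called, beside 34.8% of all genes. SMC4 (0.26), NCAPG2 (0.21), NCAPG (0.19) and NCAPH (0.25) were higher and SMC5 was lower, with edgeR adjusted p of 0.00300, 0.00898, 0.0438, 0.00733 and 0.0464. The Spearman correlation of log2 change with GC content over genes was 0.316 in this comparison. With the trends removed, 5 members were again called, beside 39.5% of all genes, now all higher, at 0.35 for NCAPG2, 0.34 for NCAPH, 0.32 for SMC4 and NCAPG and 0.18 for SMC2. The last is a change of sign for SMC2. With both steps together the same 5 were called, SMC4 at 0.40 and SMC2 at 0.22.

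**Figure D5:**
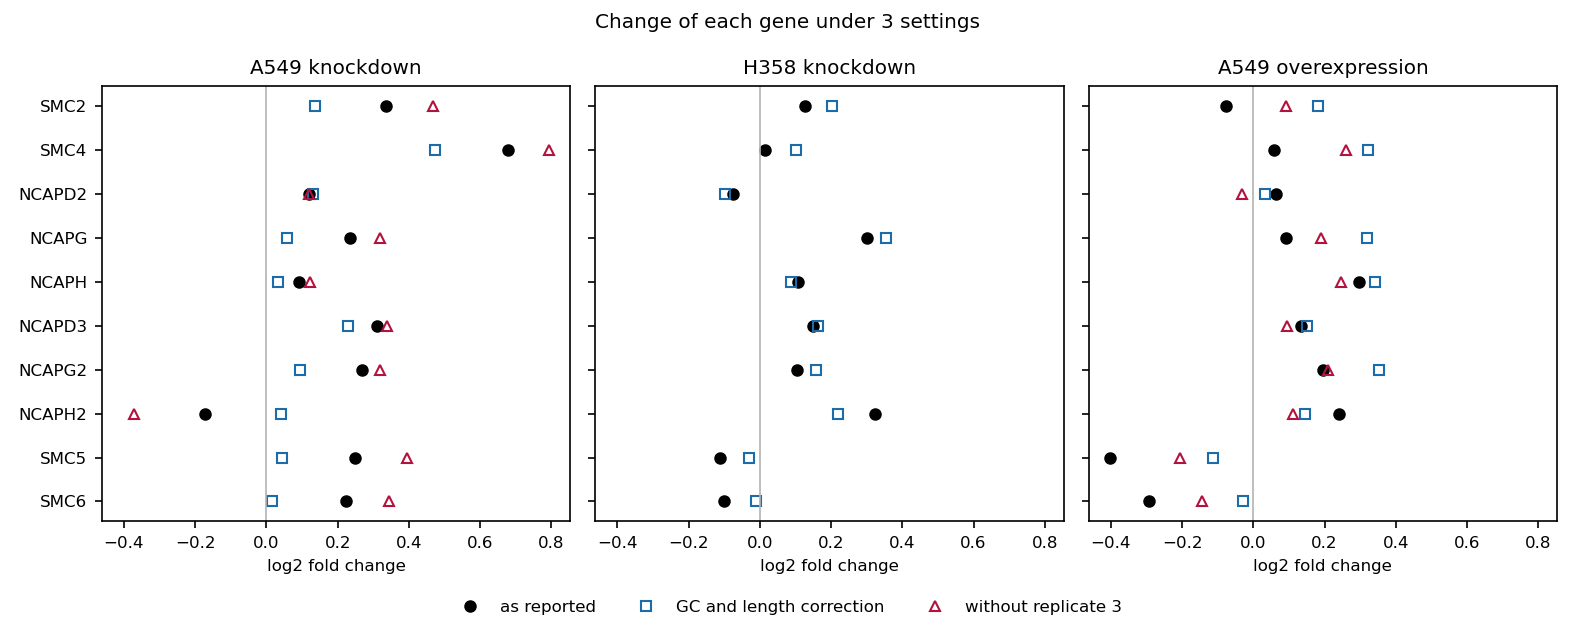
Log2 fold change (horizontal axis) of each gene in the 3 comparisons as reported (filled circles), after a correction for GC content and length (squares) and without replicate 3 of the treated group (triangles, A549 comparisons). SMC4 in A549 knockdown is the rightmost gene in that panel in all 3 settings, at 0.68, 0.47 and 0.79. SMC5 and SMC6 move towards 0 in both A549 panels after the correction.

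Beside the members in overexpression, 12 genes of the G2/M score rose and 1 fell with a median log2 change of 0.06. HJURP and CTCF had log2 changes of 0.65 and 0.54, and KIF11 one of -0.32. Of the S-phase genes 7 rose and 2 fell (median 0.04), and of the chromosome partners 2 rose, PLK1 by 0.40 and AURKB by 0.35. Of the 8 partners of SMC5 and SMC6 3 rose, NSMCE1 by 0.48, EID3 by 0.39 and RAD18 by 0.39, while the pair itself did not pass. The relatives of the pair in cohesin, SMC1A and SMC3, rose by 0.34 and 0.28 (edgeR adjusted p = 0.00425 and 0.0449). IFT80, next to SMC4, fell from 14.8 to 9.09 CPM, and MRPL51, next to NCAPD2, rose from 89.5 to 111 CPM. IFT80 was at 13.5, 8.69 and 5.09 CPM in RAD21OE and 16.1, 14.3 and 14.0 CPM in EV, with RAD21OE replicate 3 the lowest. MRPL51 was at 110, 106 and 116 CPM in RAD21OE and 89.7, 86.7 and 92.1 CPM in EV. Without RAD21OE replicate 3, 19 G2/M genes rose and 1 fell, 12 S-phase genes rose and 2 fell, and 5 chromosome partners rose and 0 fell. After the correction these counts were 25 and 0, 18 and 1, and 6 and 0. KIF11 was then not called (-0.08, edgeR adjusted p = 0.334), and SMC3 was at 0.51.

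Across all 3 comparisons with their own controls, 5 members had a positive log2 change each time: SMC4, NCAPG, NCAPH, NCAPD3 and NCAPG2. The share of all genes with that pattern is not given here, so the count has no background beside it. SMC4 was near 0 in H358 (0.01, SE 0.090) and in overexpression (0.06, SE 0.15). Both values changed sign when some single libraries were left out (to as low as -0.043 and -0.11). By edgeR as reported no member was called in more than 1 of the 3 comparisons. After the correction for GC content and length SMC2 was called in all 3 (edgeR adjusted p = 0.0400, 0.00731 and 0.0342). Its call in A549 knockdown was lost with the replicate block added (edgeR adjusted p = 0.0582). NCAPD3 was called in both knockdowns, SMC4 in both A549 comparisons, and NCAPG and NCAPG2 in H358 knockdown and overexpression. With the correction 29.3%, 17.0% and 39.5% of all genes were called in A549 knockdown, H358 knockdown and overexpression. The share of all genes called in more than 1 comparison is not given here. The 18 libraries were also used to see how the genes vary together, after centring on the mean of each line in each table. With the mean of the other condensin genes, Pearson's r was 0.94 for NCAPG2, 0.79 for NCAPD3, 0.78 for NCAPG, 0.57 for SMC4, 0.50 for NCAPH and 0.48 for SMC2. It was 0.09 for NCAPD2 and -0.26 for NCAPH2, the members richest in GC, and 0.21 for SMC5 and 0.24 for SMC6. With the mean of the G2/M score, r was 0.92 for SMC4, 0.87 for NCAPG2, 0.85 for SMC2, 0.82 for NCAPG and 0.70 for NCAPD3. It was 0.50 for SMC6, 0.47 for SMC5, 0.09 for NCAPD2 and -0.30 for NCAPH2. In the 16 libraries without A549 shRAD21 replicate 3 and RAD21OE replicate 3, r with the mean of the other condensin genes was 0.85 for SMC2, 0.77 for SMC4, 0.69 for NCAPH, 0.20 for NCAPD2, 0.39 for SMC5 and 0.41 for SMC6. In these libraries r with the mean of the G2/M score was 0.94 for SMC4, 0.96 for NCAPG2 and SMC2, 0.87 for NCAPD3 and 0.83 for NCAPG. It was 0.54 for SMC6, 0.50 for SMC5, 0.43 for NCAPD2 and -0.27 for NCAPH2. For NCAPH it was 0.39 in all 18 libraries and 0.69 in the 16. All genes of a library share its depth, treatment and GC trend, and these values are descriptions. Among 10712 genes with a mean of at least 4 CPM in both tables, those most like the mean of the 8 condensin genes were SPAG1 (r = 0.962), PSMB2 (0.954), DHX9 (0.951), SUPT16H (0.940) and GMPS (0.934). Without those 2 libraries these 5 ranked between 1 and 23.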

How the data were processed

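The deposited values are raw read counts per gene in a table of 12 knockdown libraries and a table of 6 overexpression libraries. Libraries were made with a VAHTS Universal V6 kit from TRIzol-extracted RNA, per the labels' protocols. Per the submitters' processing notes, fastp, HISAT2 2.0.5, featureCounts 1.5.0-p3 and hg38 were used, with no role or order given. Mapping of columns to samples left 0 count columns unmatched, and groups follow the labels, 3 libraries each. The members and gene lists were chosen with earlier results of these data known.

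Each table was fitted on its own in R 4.3.3 with edgeR 4.0.16 (filterByExpr, TMM, 1 mean per group, two-sided quasi-likelihood F-test). Adjusted p is Benjamini-Hochberg over all genes tested, and a gene is called, or said to have risen or fallen, under 0.05. Fits were tested on simulated counts. Ratios, orders, ranges and correlations are descriptions. The correction for GC content and length fits splines with 6 degrees of freedom to each library and enters them as offsets. Other settings used limma 3.58.1 and DESeq2 1.42.0. The correction combined with leaving out a library, and the gene lists and correlations under other settings, were chosen after seeing the data. Promoter sequences are RefSeq's, GRCh38.p14. Figures were drawn with matplotlib 3.10.9 in Python 3.11.15.

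Named genes are the 10 members, RAD21, all partners of SMC5 and SMC6, the cohesin ring, up to 2 genes per direction with the smallest adjusted p in the other lists, protein-coding genes on the opposite strand that start within 1000 bases, and the 5 genes most like the condensin mean.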

Additional observations from a re-analysis of the deposited data

Results flagged for a closer look

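SMC4 is listed because its response to knockdown differed between the lines by a test of the difference itself. The log2 change in H358 minus that in A549 was -0.66 (SE 0.13, edgeR adjusted p = 0.00144). SMC4 stood at 322 ± 47 CPM in A549 shRAD21 and 201 ± 7.3 CPM in A549 shNC, and at 170 ± 8.3 and 169 ± 14 CPM in H358 (SD, n = 3). All 3 A549 knockdown libraries were above their controls, and in H358 the ranges overlapped. RAD21 fell by 1.08 in A549 and by 0.51 in H358 on the log2 scale, and the part of this unequal knockdown in the difference was not tested.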

How the results depend on the processing

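Over 810 values of single members under alternative settings, 704 kept their direction and their side of the threshold. With the direction kept, 60 passed it newly and 27 no longer passed. The other 19 changed sign, whether or not they passed, and SMC2 in overexpression with the correction for GC content and length is one that did. SMC4 in A549 knockdown and its difference between the lines passed in each setting. In A549 knockdown, with the libraries of the 2 groups alone, 3066 genes (19.2%) and 2 members were called. In the same comparison NCAPH2 was at 0.041 with the correction for GC content and length and at 0.043 with that correction and the replicate block. In H358 knockdown 3228 genes (17.0%) and 5 members were called with the correction. With the correction and replicate block it was 2958 genes (15.6%) and 4 members. With the libraries of the 2 groups alone it was 4473 genes (26.0%) and 3 members. Without the filter on low counts 2 members were called in H358 knockdown, beside 4.86% of all genes. With the replicate block it was 0 members, beside 5.93% (by edgeR, with NCAPG at 0.30). In overexpression 3 members (NCAPH, SMC5 and SMC6) were called without the filter, beside 14.5% of all genes. It was 2 beside 24.7% with DESeq2's Wald test, 2 beside 27.9% with limma-voom and 3 beside 28.4% with the replicate block. With the correction it was 5 beside 39.5%, with the correction and block 5 beside 39.9%, and with the correction without RAD21OE replicate 3 it was 5 beside 38.2%. SMC2 was then at 0.18, 0.18 and 0.22, and NCAPD2 at -0.014 in the last. For the difference 3 members were called without the filter, with DESeq2, with limma-voom, with the correction and with the correction and block. These were SMC4, NCAPH2 and SMC5 without the filter, and SMC4, NCAPD2 and NCAPH2 with DESeq2 and limma-voom. With the correction, with or without the block, SMC4, NCAPD2 and NCAPG were called, so only SMC4 was common to these settings. The share of all genes called for the difference ran from 9.51% without the filter to 21.0% with the correction. With the correction and with the correction and block, SMC2 was at 0.0643 and 0.0645 and NCAPG2 at 0.0632 and 0.0640. Between the control lines 9180 genes (80.7%) were called with a filter of 10 CPM in 3 libraries. Causes of these shifts were not tested.

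With each library left out in turn, the genes and members called ranged from 3443 to 8430 and 3 to 9 in A549 knockdown, 755 to 874 and 0 to 1 in H358 knockdown, and 2177 to 5536 and 0 to 5 in overexpression (2177 without EV replicate 2, 2440 without EV replicate 1, 2705 without EV replicate 3). They ranged from 2235 to 7348 and 1 to 8 for the difference and from 13915 to 14065 and 7 to 9 between the control lines. As shares of all genes tested, the genes called were 17.6% to 43.0% in A549 knockdown and 3.87% to 4.48% in H358 knockdown. The shares were 13.7% to 34.8% in overexpression, 11.4% to 37.5% for the difference and 71.1% to 72.0% between the control lines. In these fits SMC4 in H358 ran from -0.043 to 0.069. In overexpression SMC2 ran from -0.17 to 0.090, SMC4 from -0.11 to 0.26, and NCAPD2 from -0.031 to 0.13. The difference ran from -0.021 to 0.16 for NCAPG and from -0.018 to 0.10 for NCAPH.

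Deviations from the group mean in same-numbered libraries of compared groups had correlations over genes of -0.0329 to 0.0641. Those of differently numbered libraries ran from -0.0479 to 0.0310. In H358 knockdown the same-numbered values were all positive (0.0495, 0.00748 and 0.0195). Such small values do not settle whether the numbers pair libraries. The labels do not say that they do, so the numbers were not taken as pairs and the replicate block is given as an alternative. With the replicate block SMC5 (-0.43, edgeR adjusted p = 0.0362) and SMC6 (-0.31, 0.0440) were called beside NCAPH in overexpression, and with block and correction SMC2 was not called in A549 knockdown (0.14, 0.0582). With the block 4, 0, 3, 1 and 9 members were called in A549 knockdown, H358 knockdown, overexpression, the difference and the control lines. The shares of all genes called with it were 22.0%, 5.93%, 28.4%, 14.2% and 74.8% in that order. With 13024640 to 19277568 counts a library, 3 libraries a group and a biological coefficient of variation of 0.0864 and 0.0981, the intervals given for each member bound what could be seen.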
